A study of Mus musculus with 10 samples.

Results

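The 10 genes described here carry out or control the first steps of branched-chain amino acid breakdown, or take these amino acids into the cell. They were chosen by gene symbol (Bcat2, Bckdha, Bckdhb, Dbt, Bckdk, Ppm1k, Ivd, Hibadh, Slc7a5 and Slc3a2). All 10 were found, each on 1 row, among the 13492 genes of the deposited expression table, and all 10 passed the expression minimum. The tissue was the tibialis anterior, a shin muscle made mostly of fast fibres, taken from C57BL/6 mice at 6 months of age after a 3-h fast. There were 5 libraries labelled Lrtm1 KO and 5 labelled Lrtm1 WT; the design text calls the controls floxed and states fewer animals per group than there are labelled libraries. Litter 108 held 2 KO and 1 WT libraries, litter 110 held 1 and 2, and litter 112 held 2 and 2. Values by library are given in the order of replicates 1 to 5 for KO and 1, 3, 4, 5 and 6 for WT. Which cells lost the floxed allele, what drove the deletion and the sex of the mice remain not given in the sources used here. Since no label states that every library is a different animal, p-values reflect only how far these libraries spread, which may be technical.

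Leucine, isoleucine and valine are unusual in that skeletal muscle, rather than the liver, begins their breakdown. The mitochondrial aminotransferase BCAT2 moves their amino group onto a keto acid. The branched-chain ketoacid dehydrogenase complex then removes a carboxyl group in a step that cannot be reversed. The kinase BCKDK switches that complex off by phosphorylation and the phosphatase PPM1K switches it on again. Entry into the cell runs largely through LAT1 (Slc7a5), an exchanger that reaches the membrane only when paired with the CD98 heavy chain (Slc3a2), and leucine that enters this way is also a signal to mTOR complex 1.

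Lrtm1 itself (ENSMUSG00000045776, a leucine-rich repeat membrane protein gene) was not lower in the libraries labelled KO. It measured 6.20, 6.12, 6.10, 5.97 and 6.21 log2 CPM (counts scaled to library size, on the log2 scale) in the libraries labelled KO, against 5.61, 5.66, 5.73, 5.65 and 5.78 in those labelled WT. Its log2 difference was 0.44 (SE 0.07, limma adjusted p = 0.0344), and all directions given here therefore compare the libraries by their labels. In leave-one-out fits the call was lost without KO replicate 3 (adjusted p = 0.0796) and without WT replicates 1, 5 or 6 (0.144, 0.0790 and 0.0536), and also with no trend (0.315) or with libraries centred within length classes (0.0513). The deleted part of the gene remains not given in the sources used here, and reads from outside it would check nothing. Fast-fibre transcripts were abundant, with 9 markers summing to 118046 to 122518 CPM in libraries labelled KO and 105079 to 123579 CPM in those labelled WT, and 7 slow-fibre markers summing to 101 to 112 CPM against 92.5 to 101 CPM. The depth behind the values is unknown.

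None of the 10 genes passed the test between libraries labelled KO and those labelled WT. The test was limma with litter, genotype and the 3 further terms that had been removed from the values before deposit, at a Benjamini-Hochberg adjusted p of 0.05 over all 12223 genes tested. It called 41 genes, or 0.335% of those tested (0.27% higher and 0.0655% lower in libraries labelled KO). At an unadjusted p of 0.05, 1 of the 10 genes passed (Slc7a5), where 10.1% of all genes did. The median log2 difference of the 10 was 0.03 and their median absolute difference 0.07, against 0.00 and 0.08 over all genes tested. Of the 10, 7 lay above 0 and 3 below. In the fit that does not count the 3 removed terms, which counts residual degrees of freedom that the values no longer hold, 1 of the 10 passed (Slc7a5, higher), where 8.62% of all genes passed (5.15% higher and 3.48% lower). In bulk muscle, fewer cells of a type and less RNA per cell cannot be told apart.

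**Figure D1:**
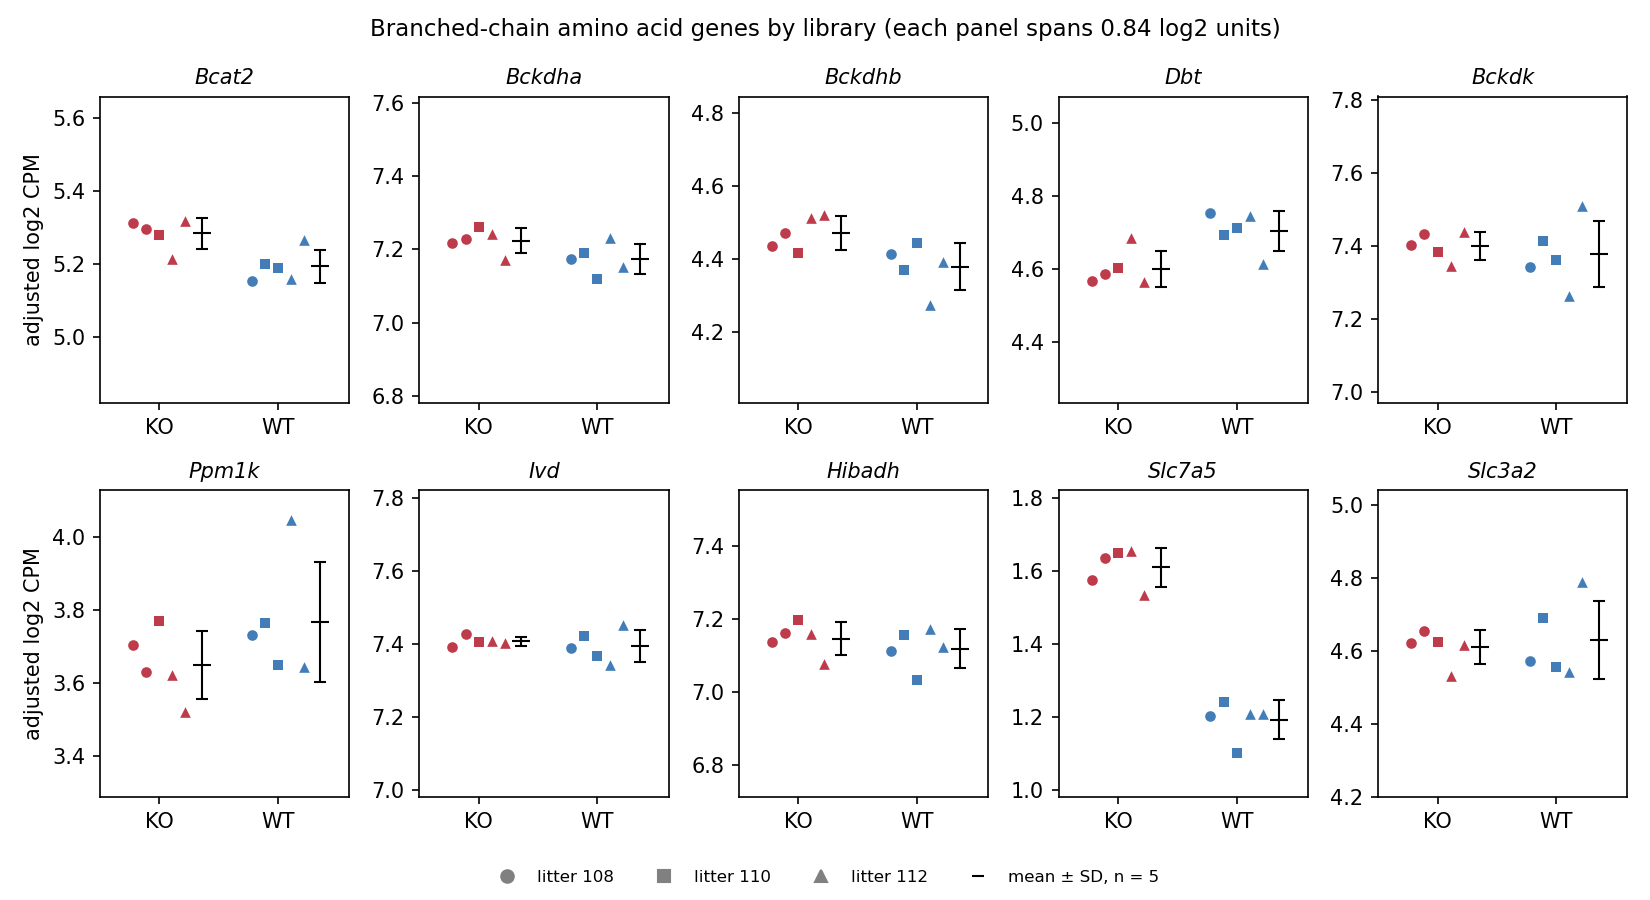
Adjusted log2 CPM of the 10 genes in each library, KO on the left and WT on the right, with the marker shape giving the litter and the bar giving the mean ± SD of 5 libraries. Every panel spans the same number of log2 units; the groups are apart for Slc7a5, at 1.53 to 1.65 in KO against 1.1 to 1.24 in WT, and overlap for the other genes.

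The amino acid exchanger gene Slc7a5 (ENSMUSG00000040010, chromosome 8, 121881150 to 121907694, minus strand) had the largest difference of the 10. It measured 1.58, 1.63, 1.65, 1.65 and 1.53 log2 CPM in the libraries labelled KO, against 1.20, 1.24, 1.1, 1.21 and 1.21 in those labelled WT. The 5 libraries labelled KO all lay above the 5 labelled WT, a separation that 8.56% of all genes tested showed in that direction, 7.63% in the other and 16.2% in either. In linear terms the transcript was scarce, at 3.05 ± 0.11 CPM in libraries labelled KO and 2.29 ± 0.08 CPM in those labelled WT (SD, n = 5 each). The log2 difference was 0.42 (SE 0.14, 95% interval 0.12 to 0.72), or 1.34-fold, with a limma adjusted p of 0.321. Not counting the removed terms left the difference as it was, with an SE of 0.06 and an adjusted p of 0.00695. Litter by litter it was 0.40 (108), 0.48 (110) and 0.39 (112).

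Its partner Slc3a2 (ENSMUSG00000010095, chromosome 19, 8706882 to 8723369, minus strand), the heavy chain that carries LAT1 and several related exchangers to the membrane, showed no such separation. It measured 4.62, 4.65, 4.62, 4.53 and 4.61 log2 CPM in libraries labelled KO, against 4.57, 4.69, 4.56, 4.54 and 4.79 in those labelled WT. The libraries labelled KO lay within the range of the controls but for 1, which was lowest of all 10. The log2 difference was -0.02 (95% interval -0.19 to 0.15, adjusted p = 0.956), so a difference of 0.15 upward or 0.19 downward remained within its error. Inside each library, the log2 level of Slc7a5 minus that of Slc3a2 was -3.00 ± 0.08 in libraries labelled KO and -3.44 ± 0.09 in those labelled WT (SD, n = 5 each). That pair was chosen after the values were seen and was not tested, and Slc7a5 alone already separated the groups.

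Slc7a6, Slc7a8 and Slc7a7, other light chains that pair with the same heavy chain, were named outside the rule for choosing genes. Slc7a6 averaged 4.39 ± 0.05 log2 CPM in libraries labelled KO and 4.45 ± 0.04 in those labelled WT (difference -0.06, adjusted p = 0.821). Slc7a8, also known as LAT2, averaged 4.62 ± 0.14 and 4.63 ± 0.11 (difference 0.00, 95% interval -0.21 to 0.20, adjusted p = 0.993). Both lay well above Slc7a5 per kilobase of longest transcript. Slc7a6 stood at 5.61 CPM per kilobase in libraries labelled KO and 5.84 in those labelled WT, and Slc7a8 at 6.06 and 6.07, where Slc7a5 stood at 0.868 and 0.650. Slc7a7 averaged lower than Slc7a5, at 0.617 and 0.603 CPM per kilobase (log2 difference 0.04, limma adjusted p = 0.968). Slc7a10 and Slc7a11, also listed, were absent from the deposited values.

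Bcat2 (ENSMUSG00000030826, chromosome 7, 45570153 to 45589711, plus strand), the mitochondrial aminotransferase, measured 5.31, 5.29, 5.28, 5.21 and 5.32 log2 CPM in libraries labelled KO, against 5.15, 5.20, 5.19, 5.16 and 5.27 in those labelled WT. All but 1 of the libraries labelled KO lay above every control, and KO replicate 4 lay among the controls. The log2 difference was 0.09 (95% interval -0.05 to 0.22, adjusted p = 0.680), with 1.17-fold at the upper end of the interval. The cytosolic aminotransferase Bcat1 was close to the floor of the table, at 0.470 ± 0.118 CPM in libraries labelled KO and 0.480 ± 0.106 CPM in those labelled WT, and was below the expression minimum.

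The dehydrogenase complex is built from a decarboxylase of alpha and beta chains (Bckdha and Bckdhb), a transacylase core (Dbt) and a shared dihydrolipoamide dehydrogenase (Dld). Bckdha (ENSMUSG00000060376, chromosome 7, 25629946 to 25658981, minus strand) measured 7.22, 7.23, 7.26, 7.24 and 7.17 log2 CPM in libraries labelled KO, against 7.17, 7.19, 7.12, 7.23 and 7.15 in those labelled WT. The groups overlapped, and the log2 difference was 0.05 (95% interval -0.07 to 0.17, adjusted p = 0.808). It was 0.03 without KO replicate 3 and 0.08 centred within length classes. An annotated gene on the other strand, B3gnt8, shares 1171 exon bases with it; the strand setting in counting remains not given in the sources used here. B3gnt8 was low, at 0.33 ± 0.23 log2 CPM in libraries labelled KO and -0.02 ± 0.37 in those labelled WT. Bcat2 likewise shares 622 exon bases with 0610005C13Rik on the other strand, and Hibadh 122 with Gm24355 on its own strand. Neither 0610005C13Rik nor Gm24355 was in the deposited values.

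Bckdhb (ENSMUSG00000032263, chromosome 9, 83925145 to 84124240, plus strand), the beta chain, measured 4.44, 4.47, 4.42, 4.51 and 4.52 log2 CPM in libraries labelled KO, against 4.41, 4.37, 4.44, 4.28 and 4.39 in those labelled WT. Its log2 difference was 0.09 (95% interval -0.06 to 0.25, adjusted p = 0.717), and it ranged from 0.01 in litter 110 to 0.18 in litter 112. Without WT replicate 5 it was 0.06. Dbt (ENSMUSG00000000340, chromosome 3, 116513070 to 116549981, plus strand), the core, had a difference below 0. It measured 4.57, 4.59, 4.60, 4.69 and 4.56 log2 CPM in libraries labelled KO, against 4.75, 4.69, 4.71, 4.75 and 4.62 in those labelled WT. KO replicate 4 and WT replicate 6 crossed over, and the log2 difference was -0.10 (95% interval -0.25 to 0.05, adjusted p = 0.665). Dld, which also serves pyruvate dehydrogenase, was no closer to the threshold (log2 difference -0.02, adjusted p = 0.940).

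**Figure D2:**
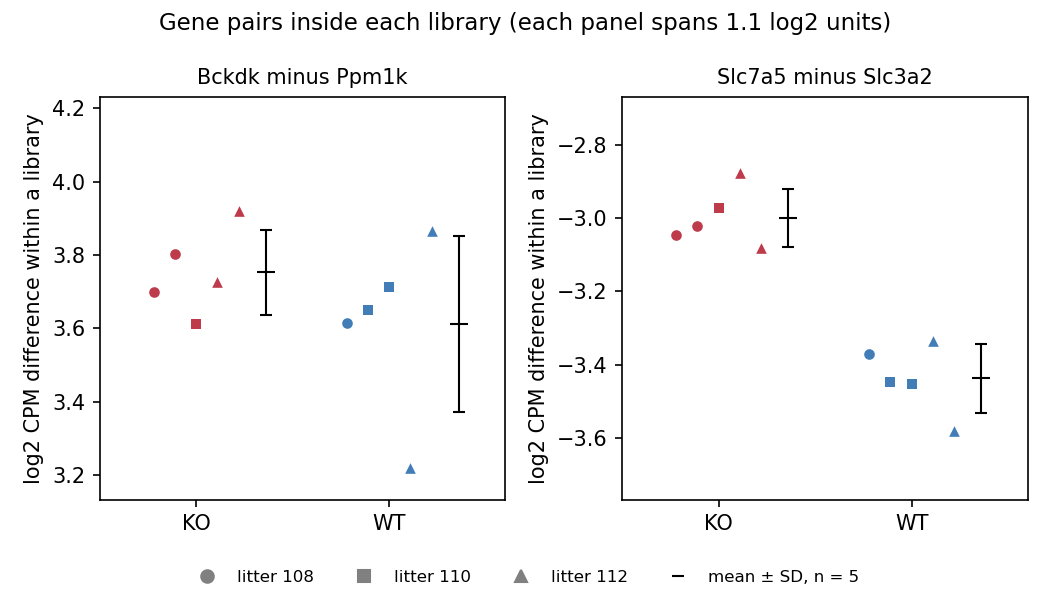
Log2 CPM of the first named gene minus that of the second inside each library, KO on the left and WT on the right, with marker shape for litter and the bar for the mean ± SD of 5 libraries. The groups are apart for Slc7a5 minus Slc3a2, as for Slc7a5 alone, and overlap for Bckdk minus Ppm1k, where WT replicate 5 lies lowest at 3.22.

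The kinase and the phosphatase set how much of the complex is active, and their start regions are shown because the balance of this pair is the regulated step. They come from RefSeq (GRCm38.p6), 250 bases before to 50 after the annotated start, in the direction of transcription. Capitals mark each CCAAT box, the motif bound by NF-Y, or its reverse complement.
Bckdk, chr7:127903823-127904122, plus strand: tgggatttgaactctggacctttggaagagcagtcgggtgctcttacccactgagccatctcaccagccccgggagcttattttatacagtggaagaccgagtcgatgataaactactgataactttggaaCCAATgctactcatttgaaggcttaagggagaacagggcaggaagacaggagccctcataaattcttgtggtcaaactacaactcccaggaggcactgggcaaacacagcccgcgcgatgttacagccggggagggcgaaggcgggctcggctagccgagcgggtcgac
Ppm1k, chr6:57535438-57535737, minus strand: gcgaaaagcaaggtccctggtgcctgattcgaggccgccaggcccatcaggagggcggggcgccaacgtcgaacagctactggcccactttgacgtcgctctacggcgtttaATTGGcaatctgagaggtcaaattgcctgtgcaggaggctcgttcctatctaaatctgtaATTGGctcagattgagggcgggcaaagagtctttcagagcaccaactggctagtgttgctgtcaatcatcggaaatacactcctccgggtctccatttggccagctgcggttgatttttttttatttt
The Bckdk window held 1 CCAAT box, on the forward strand, and the Ppm1k window held 2, both on the reverse strand. Of the 10 genes 8 had such a window in the table (10 windows in all); CCAAT, searched on both strands, was in 6 of these 10 windows and in 37.41% of all 32851 windows. The E-box CACGTG, the amino acid response motif TGATGNAA and the nuclear receptor half-site AAGGTCA were in none of the 10, against 7.15%, 3.97% and 4.72% of all windows. No motif searched contains another, the windows of Slc7a5 and Dbt were not in the table, and no binding was measured.

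Bckdk (ENSMUSG00000030802, chromosome 7, 127904082 to 127910221, plus strand), the kinase, measured 7.40, 7.43, 7.38, 7.35 and 7.44 log2 CPM in libraries labelled KO, against 7.34, 7.41, 7.36, 7.26 and 7.51 in those labelled WT. The libraries labelled KO lay wholly inside the range of the controls. The log2 difference was 0.02 (95% interval -0.12 to 0.16, adjusted p = 0.940), and it was -0.02 without WT replicate 5, the lowest control. Ppm1k (ENSMUSG00000037826, chromosome 6, 57506502 to 57535468, minus strand), the phosphatase, measured 3.70, 3.63, 3.77, 3.62 and 3.52 log2 CPM in libraries labelled KO, against 3.73, 3.76, 3.65, 4.05 and 3.65 in those labelled WT. WT replicate 5 stood above all the others. With it the log2 difference was -0.12 (95% interval -0.35 to 0.11, adjusted p = 0.770), and without it -0.02 (adjusted p = 0.879). It was -0.19 without KO replicate 3 and -0.07 without KO replicate 5.

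Within litters Ppm1k did not keep 1 sign, with 0.06 in litter 110 and -0.27 in litter 112, which holds WT replicate 5. Bckdk minus Ppm1k was 3.75 ± 0.12 log2 units in libraries labelled KO and 3.61 ± 0.24 in those labelled WT (SD, n = 5 each), with overlap. Of the 10 genes, Ppm1k had the widest spread between controls.

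Further down the pathway, Ivd (ENSMUSG00000027332, chromosome 2, 118861954 to 118882909, plus strand), the isovaleryl-CoA dehydrogenase of leucine breakdown, lay between 7.39 and 7.43 log2 CPM in libraries labelled KO and between 7.34 and 7.45 in those labelled WT. The log2 difference was 0.01, and its 95% interval from -0.10 to 0.13 leaves room for a fold between 0.931 and 1.09. Hibadh (ENSMUSG00000029776, chromosome 6, 52546228 to 52640389, minus strand), which oxidises the valine product 3-hydroxyisobutyrate, measured 7.14, 7.16, 7.20, 7.16 and 7.07 log2 CPM in libraries labelled KO, against 7.11, 7.15, 7.03, 7.17 and 7.12 in those labelled WT. The difference was 0.03 (95% interval -0.10 to 0.15, adjusted p = 0.915). It was -0.02 once each library was centred within classes of transcript length.

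**Figure D3:**
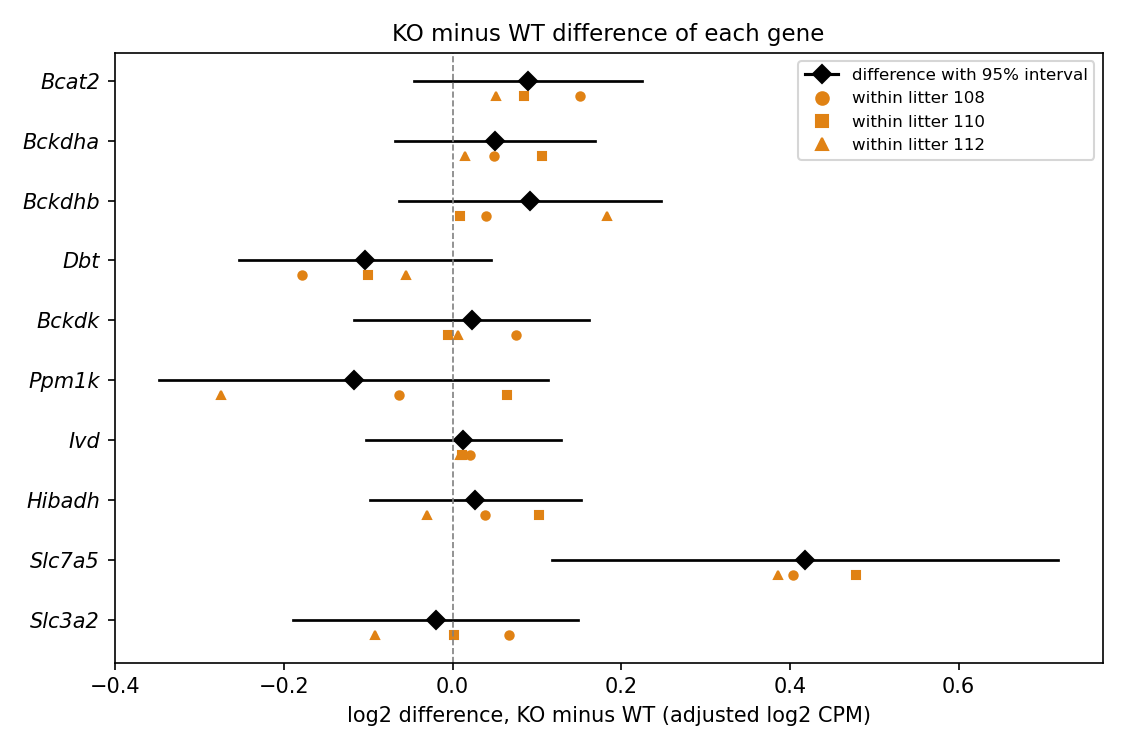
Log2 difference, KO minus WT, of each gene with its 95% interval from limma (black), and the difference inside each litter below it (orange, no error). The Slc7a5 interval, 0.12 to 0.72, is the one that does not reach 0, before adjustment over all genes.

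Per kilobase of longest annotated transcript (GENCODE M21), the 10 genes stood in the same order in both groups. Bckdha was highest, at 78.8 ± 1.86 CPM per kilobase in libraries labelled KO and 76.1 ± 2.20 in those labelled WT. Bckdk followed at 49.7 ± 1.31 and 49.0 ± 3.12, and Ivd at 46.3 ± 0.41 and 45.9 ± 1.37, a pair whose spreads overlapped in the libraries labelled WT. Hibadh stood at 23.3 and 22.9, Bcat2 at 18.7 and 17.6 and Bckdhb at 15.0 and 14.1 CPM per kilobase. Slc3a2 stood at 8.68 ± 0.27 and 8.82 ± 0.67 and Dbt at 7.36 ± 0.26 and 7.90 ± 0.30, again with spreads that overlapped in the libraries labelled WT. Ppm1k stood at 2.26 and 2.46, and Slc7a5 was lowest. Which transcript is expressed is not known from the table, so neighbours in this order may change places.

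Across all genes the log2 difference moved with transcript length, with a median of -0.04 in the shortest of 5 classes and 0.05 in the longest. Slc7a5, Dbt, Bckdk and Ivd lie in the middle class (median -0.01), Bckdha and Bckdhb in the shortest, and Ppm1k and Hibadh in the longest. After centring within length classes the Slc7a5 difference was 0.42 and its adjusted p 0.360.

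Of 21 other listed genes of the breakdown pathway 20 were tested, and none passed (limma, 0 higher and 0 lower). At an unadjusted p of 0.05, 1 of the 20 passed, where 10.1% of all genes did. The median log2 difference was -0.02, against 0.00 over all genes tested. Pcca, the alpha subunit of the propionyl-CoA carboxylase that takes up the end products of valine and isoleucine, came closest. It measured 5.77, 5.76, 5.77, 5.71 and 5.75 log2 CPM in libraries labelled KO, against 5.55, 5.60, 5.55, 5.59 and 5.62 in those labelled WT, with no overlap. Of the 20 genes, 2 were apart upward, Pcca included, and 1 downward (Echs1). Over all genes tested, 8.56% were apart upward and 7.63% downward. The Pcca log2 difference was 0.17 (SE 0.06, adjusted p = 0.325 or, not counting the removed terms, 0.00972, where 8.62% of all genes passed). Its partner subunit Pccb, named outside the rule, differed by -0.03 (adjusted p = 0.909). Hsd17b10, a dehydrogenase of isoleucine breakdown, differed by -0.15 (95% interval -0.30 to 0.01, adjusted p = 0.523). The mitochondrial carrier of branched-chain amino acids, Slc25a44, also outside the rule, differed by 0.09 (95% interval -0.04 to 0.23, adjusted p = 0.674).

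Among other amino acid transporters, 24 genes were listed and 20 tested. None passed, with 5 at an unadjusted p of 0.05 (10.1% of all genes), and the median log2 difference was 0.03. With the removed terms not counted 2 of the 20 passed, Slc15a4 and Slc38a3, a share near the 8.62% of all genes. Slc15a4, a lysosomal carrier of histidine and short peptides, averaged 18.6 ± 1.33 CPM in libraries labelled KO and 14.0 ± 0.95 CPM in those labelled WT (log2 difference 0.40, SE 0.09, adjusted p = 0.117 or, not counting the removed terms, 0.00980). It passed in the fuller fit without WT replicate 4 (adjusted p = 0.0495). Without WT replicate 1 its adjusted p was 0.318, and with no trend 0.360. It passed in 3 of 19 alternatives in all. Slc38a3, a glutamine carrier known as SNAT3, averaged 178 ± 1.79 CPM in libraries labelled KO and 159 ± 2.16 CPM in those labelled WT (log2 difference 0.17, SE 0.05, adjusted p = 0.287 or, not counting the removed terms, 0.00513). For both genes the 5 libraries labelled KO lay above the 5 labelled WT, a separation that 8.56% of all genes tested showed in that direction.

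**Figure D4:**
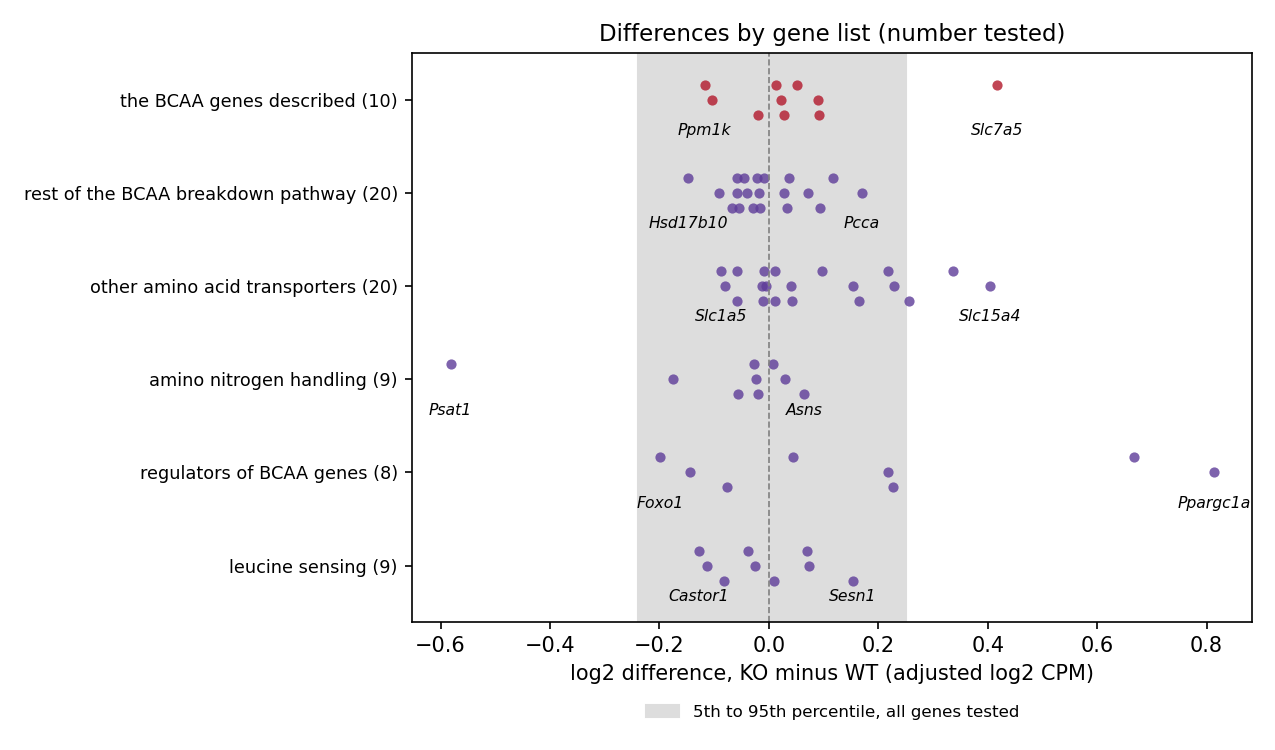
Log2 difference, KO minus WT, of every tested gene of 6 lists, 1 point a gene, with the lowest and highest of each list named and the vertical offset of points without meaning. The grey band runs from the 5th to the 95th percentile of all genes tested, -0.24 to 0.25, and 9 of the 10 genes described here lie inside it.

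The amino groups taken from these acids leave muscle mainly as alanine and glutamine. Of 9 genes of amino nitrogen handling none passed, with a median log2 difference of -0.02. At an unadjusted p of 0.05, 2 of the 9 passed, where 10.1% of all genes did. Gpt, the cytosolic alanine aminotransferase, averaged 14.1 ± 0.59 CPM in libraries labelled KO and 15.9 ± 0.49 CPM in those labelled WT, without overlap (log2 difference -0.17, adjusted p = 0.466, and 0.0367 with the removed terms not counted). Of all genes tested, 7.63% were apart in that direction, and 8.62% passed with the removed terms not counted. Gpt2, the other listed alanine aminotransferase gene, named outside the rule, was far more abundant. It averaged 253 ± 15.9 CPM in libraries labelled KO and 257 ± 22.7 CPM in those labelled WT (log2 difference -0.02, limma adjusted p = 0.947). Psat1, a serine synthesis enzyme, was near 1 CPM in both groups and differed by -0.58 (95% interval -1.16 to -0.01, adjusted p = 0.487). That difference was -0.38 without WT replicate 1 and -0.30 with log2(CPM + 1), and it ran from -1.10 in litter 108 to -0.09 in litter 112.

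Of 8 regulators known to act on these genes none passed. At an unadjusted p of 0.05 there were 5, where 10.1% of all genes passed (Ppara, Ppargc1a, Klf15, Mlxipl and Foxo1). With the removed terms not counted 3 passed, all higher (Ppara, Klf15 and Mlxipl), where 8.62% of all genes did. Mlxipl, which encodes the glucose-responsive factor ChREBP, differed by 0.22 (adjusted p = 0.313) and Foxo1, a factor active in fasting muscle, by -0.20 (adjusted p = 0.451); both were named outside the rule. The median log2 difference was 0.13 and the median absolute difference 0.21, against 0.00 and 0.08 over all genes tested. Ppargc1a, the coactivator PGC-1 alpha, which raises branched-chain amino acid breakdown when overexpressed in mouse muscle, measured 6.02, 5.95, 6.26, 5.66 and 5.49 log2 CPM in libraries labelled KO, against 4.84, 5.22, 4.51, 5.61 and 5.11 in those labelled WT. KO replicate 5 lay below WT replicate 5, and the log2 difference of 0.81 (SE 0.21, adjusted p = 0.212) ran from 0.21 in litter 112 to 1.39 in litter 110. Ppara, the fatty acid-sensing nuclear receptor, averaged 20.6 ± 3.06 CPM in libraries labelled KO and 12.9 ± 1.27 CPM in those labelled WT, without overlap (log2 difference 0.67, SE 0.13, adjusted p = 0.0670 or, not counting the removed terms, 0.0133). It passed without KO replicate 4 (adjusted p = 0.0200). Without WT replicate 1 its adjusted p was 0.260, and with no trend 0.354. It passed in 3 of 19 alternatives in all. Over all genes tested, 8.56% had every library labelled KO above every library labelled WT.

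Klf15, a factor that activates Bcat2 in mouse muscle and heart, was named outside the rule and averaged 49.4 ± 2.65 CPM in libraries labelled KO and 42.2 ± 2.39 CPM in those labelled WT (log2 difference 0.23, SE 0.07, adjusted p = 0.307 or, not counting the removed terms, 0.0329). Atf4, the amino acid response factor of which Slc7a5 is a target, also outside the rule, averaged 119 ± 1.75 and 115 ± 3.43 CPM (log2 difference 0.04, 95% interval -0.07 to 0.16, adjusted p = 0.836). Of 9 leucine-sensing genes none passed, also at an unadjusted p of 0.05, and the median log2 difference was -0.03. Sesn1, a sestrin, differed by 0.15 (adjusted p = 0.651), and by 0.09 without WT replicate 1. The GATOR1 subunit gene Nprl3 differed by -0.11 (adjusted p = 0.671).

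Marker lists of other cell types were set beside these values. The 7 endothelial markers summed to 252 to 259 CPM in libraries labelled KO and 242 to 261 CPM in those labelled WT, and 0 of 7 passed. None of 7 macrophage, 6 fibroblast or 5 red blood cell markers tested passed, and their sums overlapped. Of the 9 fast-fibre and 7 slow-fibre markers none passed. The slow-fibre log2 differences ran from -0.26 to 0.98, and 1 of these 7 passed, higher, with the removed terms not counted. The 8 adipocyte markers summed to 71.9 to 83.1 CPM in libraries labelled KO and 83.2 to 99.9 CPM in those labelled WT, without overlap. Of the 7 adipocyte markers tested none passed. In the fit that does not count the removed terms 4 did, all lower, where 8.62% of all genes did (3.48% lower). The median log2 difference of the 7 was -0.89, against -0.004 over all genes tested. The part of these cells in the values above was not tested.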

How the data were processed

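Stranded oligo-dT libraries were made from TRIzol-extracted RNA, per the labels' protocols. Fastp, kallisto and limma are named without versions in the submitters' processing notes. The authors deposited adjusted log2 CPM values for 13492 genes. Build, annotation, strand setting and depth remain not given in the sources used here, and no counting interval could be given. Back-converted libraries sum to between 960166 and 1016398 CPM.

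With genotype in the fit, litter effects in the deposited log2 values were at most 6.7e-14, and residuals spanned 3 dimensions where genotype and litter leave 6. The authors' adjustment had therefore removed 3 further terms, which the sources do not name. Printed SDs leave out that variation. Whether the 3 terms shared variation with genotype, and what became of any such share, is not known.

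The 12223 genes that averaged 0 log2 CPM or more were tested two-sided in R 4.3.3 with limma 3.58.1 (lmFit, then eBayes with its trend option). The terms were genotype, litter and the 3 directions left empty by the removal, taken at right angles to genotype and litter. That leaves 3 residual degrees of freedom. If the removed terms themselves overlapped with genotype, the SEs and p-values are still too small. The steps were tested on simulated data. Positions and lengths came from GENCODE M21 (GRCm38), matched by Ensembl identifier for 99.1% of tested genes. Named genes were the 10 members, Lrtm1, and from each of 5 lists those past the threshold or else the 2 with the lowest p. Members and lists were chosen with earlier results of these data known.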

Additional observations from a re-analysis of the deposited data

Results flagged for a closer look

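In 42 groups of 5 libraries, 21 genes in each genotype, 2 had a library standing apart from its group by Dixon's criterion, where chance flags about 1 in 20. For Slc7a5, WT replicate 4 stood low at 1.1 log2 CPM, below the other libraries labelled WT at 1.20 to 1.24; without it the log2 difference was 0.40 (limma adjusted p = 0.176). For Sesn1, WT replicate 5 stood high at 4.11 log2 CPM, above the other libraries labelled WT at 3.80 to 3.88; without it the log2 difference was 0.22.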

How the results depend on the processing

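The count of 0 among the 10 genes held in 17 of 19 alternatives and was 1 (Slc7a5) in the others, with the removed terms not counted and with no litter term. Those 17 include the minimum mean log2 CPM of 2, where 9 genes were tested and Slc7a5 was not. The count over all genes, 41, was 1054 with the removed terms not counted, 517 with no litter term, 128 under a replicate block and 1 with no trend. The replicate block took the place of litter, and that fit did not count the removed terms either. The count over all genes ranged from 8 (without WT replicate 1) to 60 (without WT replicate 4) when 1 library was left out, and from 0 to 0 among the 10 genes. It was 11, 20 and 17 without KO replicate 3, WT replicate 5 and WT replicate 6; leaving out WT replicate 1 or KO replicate 3 takes a litter out of the comparison. The causes of these shifts were not tested.

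The Slc7a5 difference stayed above 0 in each of the 28 alternatives that tested it, from 0.30 with log2(CPM + 1) to 0.44, with adjusted p from 0.00695 to 0.573; at a minimum of 2 it was not tested. Left-out libraries with the removed terms not counted, added after seeing the data, kept its call except without KO replicate 3 (adjusted p = 0.0662) or WT replicate 1 (0.0551). Differences near 0 changed sign. Slc3a2 was 0.00861 under the replicate block and 0.00262 centred within length classes, and Hibadh -0.0213 within length classes. With 1 library left out Slc3a2 ran from -0.0548 to 0.0334, Hibadh from -0.00273 to 0.0508, Bckdk from -0.0155 to 0.0668 and Ivd from -0.00445 to 0.0315. The Slc7a5 adjusted p was 0.0708 under the replicate block, which also left out litter and did not count the removed terms. Deviations of same-numbered libraries correlated at -0.85, 0.45, 0.03 and -0.50 for numbers 1, 3, 4 and 5, and none correlated best with its own number. Because the authors' adjustment removed litter effects, deviations from the group means cancel inside each litter, which partly fixes these correlations. They therefore cannot show whether the replicate numbers pair the libraries. Depth is unknown, so counting error could not be given for low transcripts such as Slc7a5 and Psat1.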
